A study of Rattus norvegicus with 62 samples.

Results

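Rosiglitazone is a thiazolidinedione that activates PPAR gamma, and the 9 genes described here encode the receptor it binds and the partners that receptor works with. They are the 3 peroxisome proliferator-activated receptors Pparg, Ppara and Ppard, the 3 retinoid X receptors Rxra, Rxrb and Rxrg, the coactivators Ppargc1a and Ppargc1b, and the estrogen-related receptor Esrra. They were taken as every probe set, a group of short array probes for 1 transcript, whose platform annotation gives exactly 1 gene that is one of the 9. This gave 13 probe sets, in an annotation that names 14217 genes by probe sets with 1 gene. Each was followed in 62 arrays of cardiac muscle from male Wistar rats, an outbred strain. Rats were dosed by mouth once a day for 14 days with vehicle, 10 mg/kg rosiglitazone or 80 mg/kg rosiglitazone, and hearts were taken, by the series description, 6, 24, 168 or 336 h after the last dose. From the earliest time to the latest, vehicle had 4, 6, 5 and 5 arrays, 10 mg/kg had 5, 5, 5 and 6, and 80 mg/kg had 5, 5, 6 and 5. Age is not among the labels used here, and the labels do not say that the samples of a group came from separate animals, so p-values measure the spread between samples, which may be technical.

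A PPAR binds DNA as a pair with an RXR. Fatty acids and their derivatives switch PPARs on, and in the heart PPAR alpha and PPAR delta drive genes of fatty acid oxidation, while PPAR gamma is best known for fat cell differentiation. PGC1 alpha and PGC1 beta, the products of Ppargc1a and Ppargc1b, bind no DNA themselves but join PPARs and the orphan receptor ERR alpha, the product of Esrra, and raise transcription of genes for mitochondrial energy production.

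Stretches of 250 bases before the transcription start, from RefSeq on the rat build GRCr8, are shown for the members on which the results below turn most, with capitals marking the motifs found in them. A window was at hand for 8 of the 9 members. Pparg has a window for each of 2 starts, at chr4:150096808-150097057 and chr4:150154522-150154771, both on the plus strand, and which start the array signal comes from was not determined here. The Ppargc1a window is chr14:63634058-63634307 on the plus strand, and the Esrra window is chr1:213543306-213543555 on the minus strand.
Pparg start 1: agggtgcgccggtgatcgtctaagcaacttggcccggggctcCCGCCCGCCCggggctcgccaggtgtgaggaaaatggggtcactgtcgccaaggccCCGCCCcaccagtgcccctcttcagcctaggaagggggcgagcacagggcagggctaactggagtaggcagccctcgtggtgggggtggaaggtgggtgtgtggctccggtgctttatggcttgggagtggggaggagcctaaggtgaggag
Pparg start 2: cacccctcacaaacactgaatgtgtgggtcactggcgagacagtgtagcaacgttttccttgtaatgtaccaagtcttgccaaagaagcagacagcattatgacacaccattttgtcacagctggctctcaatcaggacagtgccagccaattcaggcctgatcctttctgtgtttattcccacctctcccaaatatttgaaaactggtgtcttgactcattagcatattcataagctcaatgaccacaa
Ppargc1a: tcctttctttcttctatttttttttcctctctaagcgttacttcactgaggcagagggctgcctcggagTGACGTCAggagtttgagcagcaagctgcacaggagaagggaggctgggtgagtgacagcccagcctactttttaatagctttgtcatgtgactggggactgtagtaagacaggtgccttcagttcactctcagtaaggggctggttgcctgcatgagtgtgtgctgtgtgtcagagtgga
Esrra: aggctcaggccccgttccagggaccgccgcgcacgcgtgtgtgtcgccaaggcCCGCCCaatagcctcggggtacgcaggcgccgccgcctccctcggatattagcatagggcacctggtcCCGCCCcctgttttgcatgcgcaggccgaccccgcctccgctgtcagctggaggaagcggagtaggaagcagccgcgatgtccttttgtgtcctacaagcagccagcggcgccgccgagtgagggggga
Both strands were searched for 6 motifs. The Ppargc1a window holds the cAMP response element TGACGTCA 181 bases before the start, a motif found in 1.59% of 33469 RefSeq windows of this length. The GC box GGGCGG, found in 30.5% of windows, occurs on the minus strand in Pparg start 1 at 208, 204 and 152 bases before the start, where the first 2 overlap, and in Esrra at 197 and 129 bases. It also occurs in the windows of Ppara, Rxra, Rxrb and Ppargc1b. The direct repeat AGGTCANAGGTCA, the form PPAR and RXR bind together, is in 0.0508% of windows and in 0 of the members' windows. The same holds for its single unit AGGTCA (14.1% of windows), the ERR element TNAAGGTCA (1.04%) and the E-box CACGTG (5.59%). Pparg start 1 is 67.2% G and C, and Pparg start 2 is 44.8%.

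Values are log2 of the deposited signals after quantile normalization, and a difference is in log2 units. Deposited signals did not share 1 scale, since the 2% trimmed mean ran from 82.9 to 246 between arrays. The 62 arrays fell into 3 clusters of 21, 21 and 20 on the first 2 principal components, and the third ran higher on an RNA quality measure. The 3′ minus 5′ difference of the hexokinase control probe sets was 1.38 to 1.97 in the first cluster, 1.42 to 2.45 in the second and 2.09 to 6.08 in the third. The first and the second largely overlapped on this measure. The second cluster held all 16 arrays of 336 h and 5 arrays of earlier times (vehicle 168 h replicate 3, 10 mg/kg 24 h replicate 3, 80 mg/kg 24 h replicates 4 and 6, and 80 mg/kg 168 h replicate 3). The atrial gene Myl7 was above 9 in 10 arrays, at 9.32 to 12.9, against at most 8.71 in the other arrays, and 4 of these were of 10 mg/kg at 6 h. Heart muscle markers (9 of 10 on the array) averaged 12.7 to 14.1. Of 7 fat cell markers Adipoq, Plin1, Cidec and Lep lay below the filter on low values, Cfd (5.86) and Fabp4 (12.30) lay above it, and Retn was not analysed here. Of 5 brown fat markers Ucp1, Dio2 and Elovl3 lay below it, and Cidea (10.65) and Prdm16 (5.29) above it. The drug response was present. Rbp7, a retinol binding protein gene of endothelium and fat, lay at 10.0 to 12.52 in 80 mg/kg arrays, against 7.24 to 9.0 in vehicle arrays. Its mean at 6, 24, 168 and 336 h was 10.89, 10.82, 11.54 and 11.84 at 80 mg/kg, against 7.96, 7.87, 7.78 and 7.74 with vehicle, so the difference was still present at the latest time, which the series description places 336 h after dosing ended. In 10 mg/kg 6 h replicate 5, however, Rbp7 was 7.43, inside the vehicle range, against 10.34 to 11.12 in the other 4 arrays of that group, so results for that group are given with and without it.

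Of the 13 probe sets 11 had a mean at or above the 40th percentile of all probe sets (5.03) and were tested among 18625. Below, members counted in a test are these 11 probe sets, and Ppargc1a and Rxrg each have several of them. The only probe set of Rxra, the RXR found in nearly all tissues, averaged 4.46 (1.65 to 6.40), and a second Ppard probe set, 1387684_at, averaged 4.87 (2.38 to 6.14). Both missed the filter, so Rxra has no test here. For each of the 13 probe sets the 12 groups were ordered by mean, and in 0 of 11 neighbouring pairs were the ranges apart. Neighbours in that order are the groups closest in mean. The count was not made over all probe sets, so it shows nothing particular to these genes. In tissue, fewer cells of a type and less RNA per cell cannot be told apart, and this holds for every level below.

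At 80 mg/kg none of the 11 tested probe sets passed an adjusted p of 0.05 against vehicle at 6, 24, 168 or 336 h, in limma with Benjamini-Hochberg adjustment. Over all probe sets 0.0537%, 0.14%, 0.0537% and 0.29% were called at these times, and 0 of 11 members lies close to these shares. The smallest adjusted p among members was 0.791, 0.387, 0.948 and 0.673 in the order of the times, and 0, 2, 0 and 1 members had an unadjusted p under 0.05. Averaged over the 4 times 0 members passed as well, against 0.478% of all probe sets, with 2 at an unadjusted p under 0.05. The median difference of the members was 0.06 in that average, against -0.00 for all probe sets, and 7 of 11 were positive.

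Pparg, the receptor rosiglitazone binds, was measured by 1369179_a_at with a mean of 6.57. At 336 h its values were 7.27, 7.10, 6.75, 6.91 and 7.19 in 80 mg/kg hearts, against 6.63, 6.61, 5.95, 7.25 and 6.48 in vehicle hearts. All 5 arrays of 80 mg/kg exceeded the vehicle mean of 6.58, but the highest vehicle array lay among them, and the difference of 0.46 had an unadjusted p of 0.041 and an adjusted p of 0.67 in limma. At 168 h the 80 mg/kg arrays ran from 6.51 through a median of 6.78 to 7.04, and the vehicle arrays were 6.58, 6.63, 6.36, 5.98 and 6.41. Here too the groups overlapped, with 6 of 6 arrays of 80 mg/kg above the vehicle mean of 6.39 (difference 0.38, adjusted p = 0.95 in limma).

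At 6 h Pparg was 7.02, 6.46, 6.74, 6.47 and 7.0 in 80 mg/kg hearts, against 5.66, 6.47, 6.14 and 7.06 in vehicle hearts, a difference of 0.41 (limma adjusted p = 0.79). Vehicle replicate 6 had the highest value of both groups and is also one of the arrays with high Myl7. At 24 h it was 6.69, 6.30, 6.15, 5.70 and 6.52 in 80 mg/kg hearts, and the vehicle hearts ran from 6.01 through a median of 6.15 to 6.49, with a difference of 0.06. The groups overlapped nearly throughout at that time.

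Averaged over the 4 times, Pparg was 0.33 higher at 80 mg/kg than with vehicle (SE 0.11, 95% confidence interval 0.11 to 0.55, means 6.71 and 6.38), with an unadjusted p of 0.0043 and an adjusted p of 0.208 in limma. The adjusted p did not reach the threshold, so a rise of Pparg was not called with these 62 arrays. With the array cluster as a block the difference was again 0.33 (adjusted p = 0.169), where 0.719% of all probe sets were called. Without the arrays of high Myl7 it was 0.45 (adjusted p = 0.112), and leaving out single arrays gave 0.27 to 0.39. Within clusters the differences at 6 h were 0.58 in the first (2 arrays against 3 of vehicle) and 0.18 in the third (3 against 1). At 168 h they were 0.38 in the first (3 against 3), 0.49 in the second (1 against 1) and 0.24 in the third (2 against 1). All arrays of 336 h lie in the second, with a difference of 0.46. At 24 h the differences were 0.46 in the first cluster (2 arrays against 1) and -0.55 in the third (1 array against 5). Of 7 endothelial markers on the array 4 were positive in the mean over the times and 1 was called, Kdr (0.22). Their summed linear signal at 336 h was 3911 to 4987 at 80 mg/kg, against 3848 to 4121 with vehicle, and their part in the Pparg values was not tested.

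**Figure D1:**
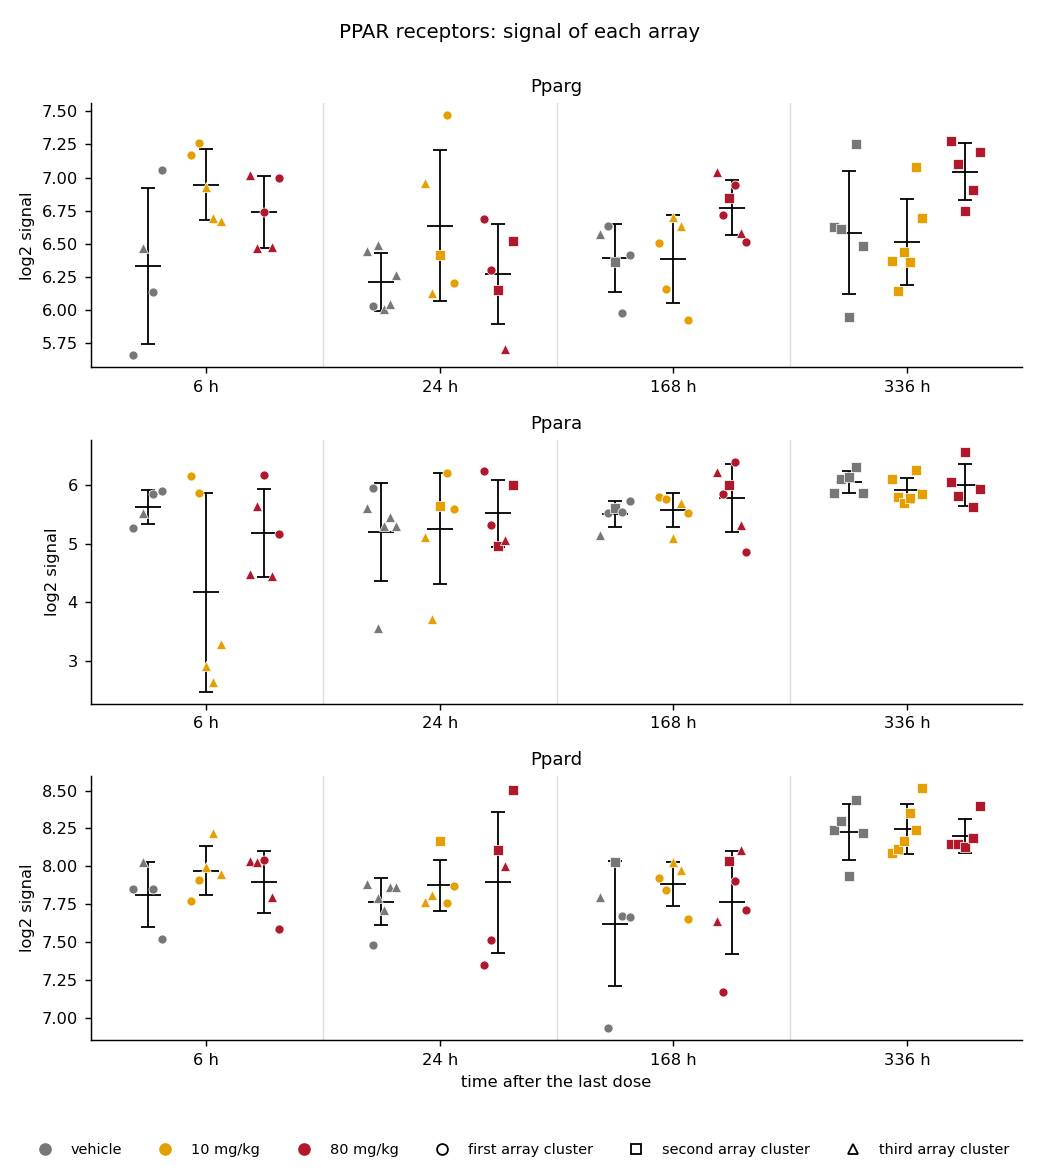
Log2 signal (vertical axis) of the Pparg, Ppara and Ppard probe sets in each array of the 12 groups, ordered by time after the last dose and by dose (grey vehicle, orange 10 mg/kg, red 80 mg/kg), with circles, squares and triangles for the first, the second and the third array cluster, lines for group means and bars for SD. The Pparg points at 336 h average 7.05 at 80 mg/kg and 6.58 with vehicle, and the 3 lowest Ppara points of 10 mg/kg at 6 h are triangles.

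In 10 mg/kg hearts Pparg was 7.17, 7.26, 6.93, 6.69 and 6.67 at 6 h, where vehicle hearts held the 4 values given above. All 5 arrays exceeded the vehicle mean of 6.33 and the highest vehicle array lay within their range, and the difference was 0.61 (unadjusted p = 0.011 in limma). Without replicate 5, the array with low Rbp7, it was 0.68 with an adjusted p of 0.54. At 24, 168 and 336 h the differences were 0.42, -0.00 and -0.07, and the mean over the 4 times was 0.24 (95% interval 0.02 to 0.46, limma adjusted p = 0.998). Of all probe sets 0% were called at each of the 4 times and 0.0107% in the mean. No member was among them at any time or in the mean, while 3, 3, 0 and 1 members in the order of the times, and 2 in the mean, had an unadjusted p under 0.05 in limma.

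Between the doses, Pparg at 336 h was 7.05 ± 0.22 (SD, n = 5) at 80 mg/kg and 6.51 ± 0.33 (SD, n = 6) at 10 mg/kg, a difference of 0.53 with an unadjusted p of 0.015 that did not pass adjustment in limma. At 24 h the difference between the doses was -0.36, and over the 4 times it was 0.09. For 80 against 10 mg/kg 0%, 0.0107%, 0.0376% and 0.102% of probe sets were called at 6, 24, 168 and 336 h and 0.188% in the mean, with 0 members in each. At an unadjusted p under 0.05 in limma there were 2, 0, 1 and 1 members at these times and 0 in the mean. Whether the effect of a dose differed between times was tested by an F test, which called 0.0215% of probe sets for 80 mg/kg, 0% for 10 mg/kg, and 0 members for both (1 and 0 at an unadjusted p under 0.05 in limma).

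Ppara, the main PPAR of fatty acid oxidation in heart muscle, gave the largest difference from vehicle of the 11 tested probe sets, at 10 mg/kg and 6 h. Its probe set 1387278_at stood at 6.17, 5.87, 2.90, 2.63 and 3.28 in those hearts, against 5.26, 5.53, 5.85 and 5.90 in vehicle hearts. The first 2 arrays lay at the vehicle level or just above it and the other 3 far below, all 3 in the third array cluster. High Myl7 was found in these 3 and in replicate 1 (11.50), which held the highest Ppara value of the group. Over all arrays Ppara averaged 5.75, 5.91 and 4.78 in the first, the second and the third cluster. The mean difference was -1.46 (unadjusted p = 0.0031, adjusted p = 0.587 in limma). Without replicate 5 it was -1.24, and without the arrays of high Myl7, which leave replicate 2 alone in that group, it was 0.32. All 7 atrial markers were measured and all 7 were higher than vehicle at 6 h in this group (0 called), with a summed linear signal of 10067 to 26446 against 6380 to 25883. The part of cluster and of Myl7 in this difference was not tested.

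At 80 mg/kg Ppara was 4.49, 5.65, 6.17, 4.44 and 5.17 at 6 h, on both sides of the vehicle values. Averaged over the 4 times its difference from vehicle was 0.02 (95% interval -0.42 to 0.47) at 80 mg/kg and -0.37 (-0.81 to 0.07) at 10 mg/kg. The residual SD of 0.72 for Ppara, against 0.25 for the tested Ppard probe set, sets the width of these intervals.

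Ppard encodes the PPAR that shares many fatty acid oxidation targets with PPAR alpha in muscle. Its tested probe set 1374914_at averaged 7.93, and the mean difference from vehicle over the 4 times was 0.08 at 80 mg/kg (95% interval -0.08 to 0.24) and 0.14 at 10 mg/kg. Across 62 arrays, with group means removed, the 2 Ppard probe sets correlated at 0.12, as a description of points that share arrays.

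The RXR genes encode the shared dimer partners, of which Rxrg is the form enriched in heart and skeletal muscle. Averaged over the 4 times Rxrb (1389051_at) differed from vehicle by -0.13 at 80 mg/kg (95% interval -0.41 to 0.15), and Rxrg by -0.03 in 1370981_at (-0.18 to 0.12). The other Rxrg probe set, 1392271_at, averaged 5.45 at 80 mg/kg and 4.86 with vehicle, a difference of 0.59 (95% interval 0.09 to 1.09, unadjusted p = 0.023, adjusted p = 0.404 in limma). The 2 Rxrg probe sets disagree, and across arrays they correlated at -0.09.

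At 336 h Rxrg 1392271_at was 6.0, 4.16, 4.65, 5.54 and 6.13 in 80 mg/kg hearts, against 2.71, 4.62, 5.66, 5.60 and 3.91 in vehicle hearts. The lowest array of both groups was vehicle replicate 2, and the ranges overlapped over most of their length. At 10 mg/kg and 336 h it ran from 4.78 through a median of 5.88 to 6.26, which is 1.23 above vehicle (unadjusted p = 0.014, adjusted p = 1.0 in limma).

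**Figure D2:**
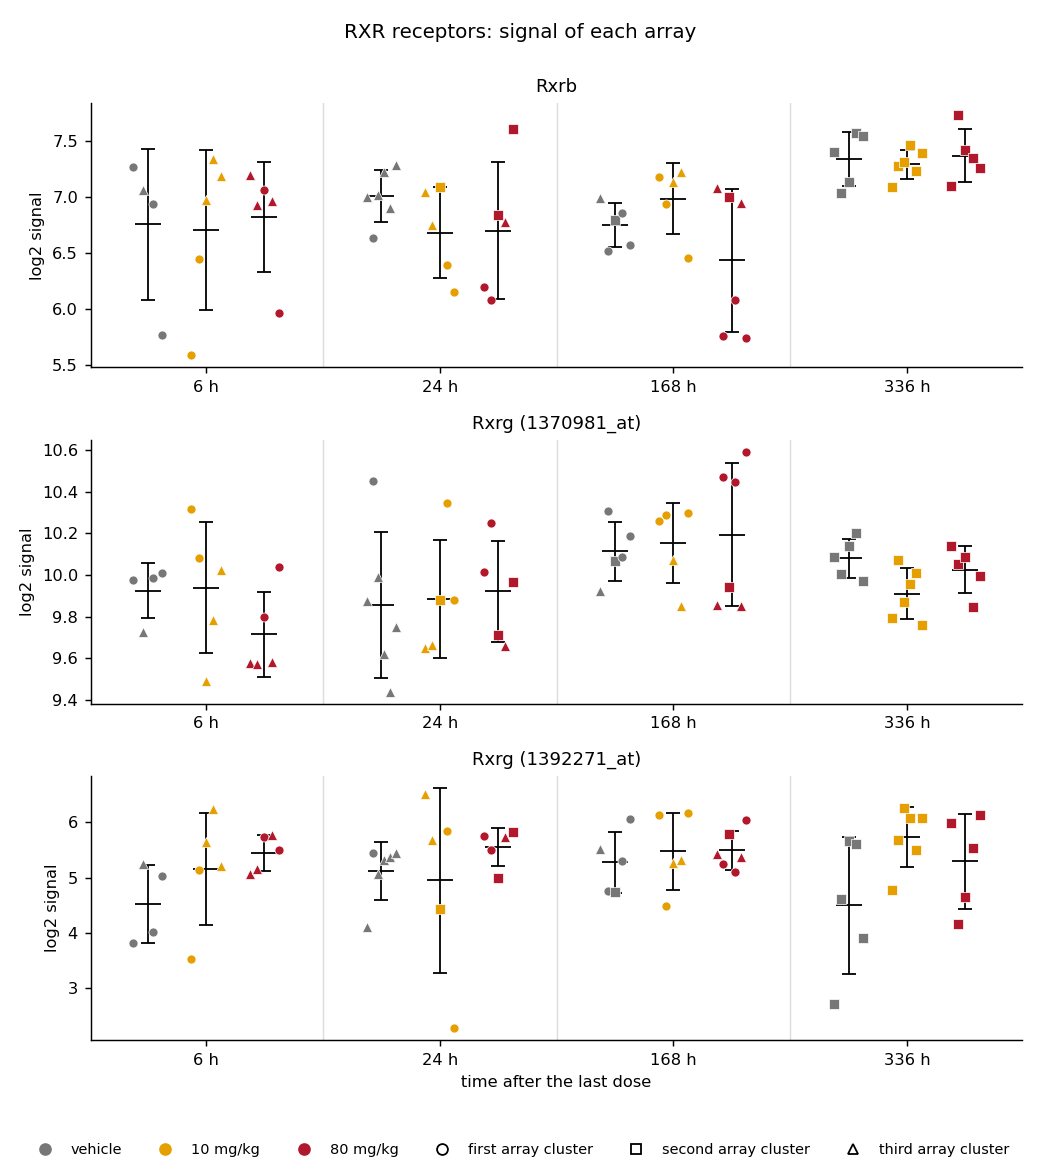
Log2 signal (vertical axis) of the tested Rxrb and Rxrg probe sets in each array of the 12 groups, with colours, shapes, lines and bars as for the PPAR genes. Rxrg 1370981_at has all arrays between 9.44 and 10.59, Rxrb at 80 mg/kg and 168 h splits into 3 arrays at 5.74 to 6.07 and 3 at 6.95 to 7.08, and Rxrg 1392271_at scatters from 2.28 to 6.51.

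The PGC1 coactivators showed no called difference between doses. For Ppargc1a the mean difference of 80 mg/kg from vehicle was 0.06 in 1395518_at (95% interval -0.13 to 0.24), -0.08 in 1393743_at (-0.21 to 0.05) and 0.22 in 1370089_at (-0.40 to 0.85). The intervals of the first 2 lie within 0.24 of no difference, while that of 1370089_at, whose residual SD was 1.01, is far wider. At 24 h Ppargc1a 1393743_at stood at 9.20, 9.45, 8.96, 9.31 and 9.13 in 80 mg/kg hearts, and the vehicle hearts ran from 9.22 to 9.75 with a mean of 9.49. All 5 arrays of 80 mg/kg lay below the vehicle mean with overlap, and the difference of -0.28 had an adjusted p of 0.387 in limma. With the array cluster as a block it was -0.06 (unadjusted p = 0.62).

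Ppargc1b (1392715_at), the gene of the close relative of PGC1 alpha, gave 8.63, 8.79, 8.70, 7.47 and 8.87 at 24 h in 80 mg/kg hearts, and 7.42 through a median of 7.50 to 8.79 in vehicle hearts. The groups were nearly apart but for replicate 5 of 80 mg/kg and replicate 2 of vehicle, and the difference was 0.74 (unadjusted p = 0.029, adjusted p = 0.398 in limma). The array clusters moved with this gene. Its values ran from 8.37 to 9.29 in the first cluster, 7.71 to 8.87 in the second and 7.10 to 7.90 in the third, so that the first and the third did not overlap. At 24 h the third cluster held 1 of the 5 arrays of 80 mg/kg, which is replicate 5, and 5 of the 6 vehicle arrays, all but replicate 2. With the array cluster as a block the difference at 24 h was 0.06 (unadjusted p = 0.62 in limma). Averaged over the 4 times the difference was 0.14 (95% interval -0.20 to 0.48).

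Esrra (1374741_at), the receptor through which PGC1 proteins reach many mitochondrial genes, was 8.06, 7.93, 8.43, 8.06 and 8.43 at 6 h in 10 mg/kg hearts, against 8.34, 8.71, 8.50 and 8.66 in vehicle hearts. The ranges overlapped slightly and the difference was -0.37 (unadjusted p = 0.035, adjusted p = 0.76 in limma), or -0.43 without replicate 5. At 24 h it was 8.40, 8.46, 8.16, 8.60 and 8.25 at 10 mg/kg, and 8.30 through a median of 8.81 to 9.13 with vehicle, again -0.37 (adjusted p = 0.85). The mean over the 4 times was -0.10 at 80 mg/kg (95% interval -0.26 to 0.06) and -0.17 at 10 mg/kg (-0.33 to -0.01, adjusted p = 0.998).

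**Figure D3:**
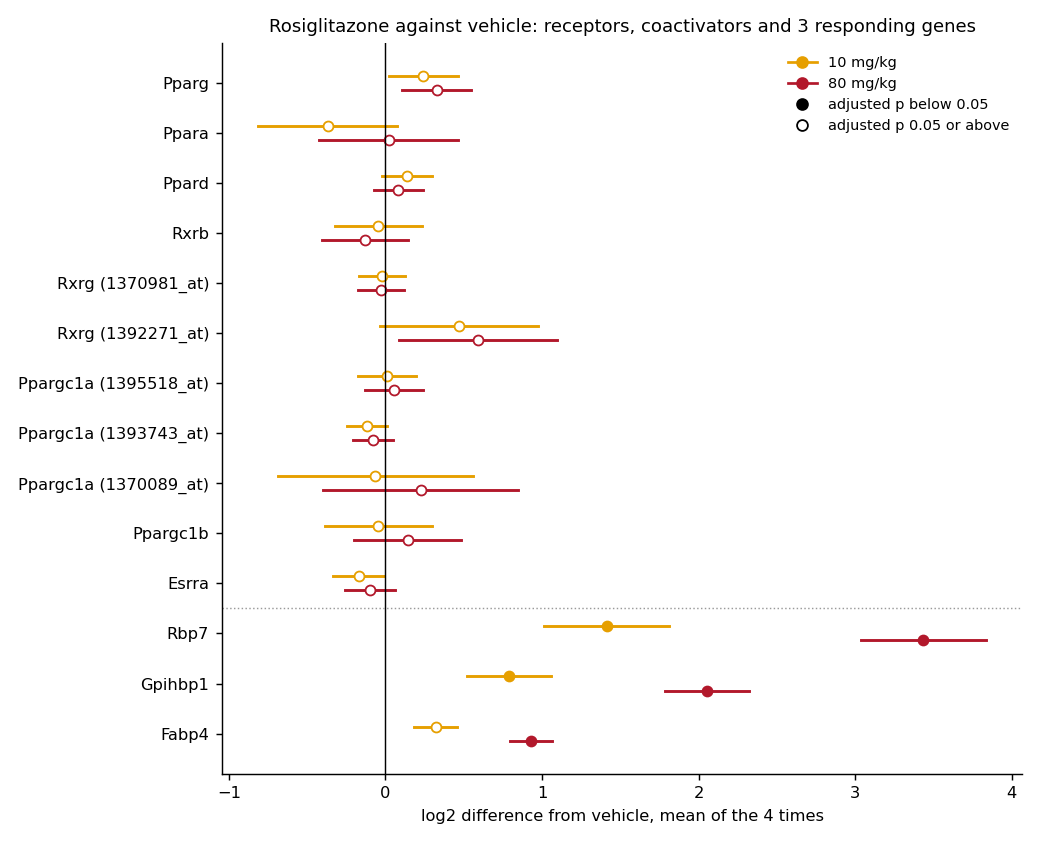
Difference from vehicle in log2 units (horizontal axis), averaged over the 4 times, for the 11 tested probe sets at 10 mg/kg (orange) and 80 mg/kg (red), with 95% confidence intervals as bars and filled points reserved for an adjusted p under 0.05. The genes Rbp7, Gpihbp1 and Fabp4, which respond to the drug, stand below a dotted line, with filled points at 1.41 and 0.79 for the first 2 at 10 mg/kg and at 3.44, 2.05 and 0.93 for all 3 at 80 mg/kg. No member's point is filled, and at 80 mg/kg the intervals of Pparg (0.11 to 0.55) and Rxrg 1392271_at (0.09 to 1.09) lie above 0.

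Beside the members, 7 lists of genes around them were counted, with 80 mg/kg against vehicle averaged over the 4 times. Among PPAR gamma targets 5 of 17 measured rose and 0 fell. They were Rbp7 (3.44), Gpihbp1 (2.05), an endothelial anchor of lipoprotein lipase, the fatty acid binding protein genes Fabp4 (0.93) and Fabp5 (0.60), and Cd36 (0.42), a fatty acid transporter gene. The list median was 0.07, against -0.00 for all probe sets, and Rbp7, Gpihbp1 and Fabp4 were known to respond in these arrays when the list was drawn up. Among cardiac PPAR alpha targets 0 of 24 rose and 1 fell, Acadm (-0.14, limma adjusted p = 0.047), which encodes an acyl-CoA dehydrogenase of fatty acid oxidation. The Acadm call was lost in 26 of 41 omissions of 1 array (adjusted p up to 0.0922), and the calls of the other 5 genes in none.

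None of 22 coregulators, 23 other nuclear receptors, 21 regulators of mitochondrial biogenesis, 21 PGC1 and ERR targets and 13 clock genes was called in that mean. At single times the same 5 lists held calls only at 24 h, where the clock genes Bhlhe40 (1.44), Dbp (1.36) and Bhlhe41 (0.90) rose. The first was lost in 5 of 11 omissions of 1 array and Dbp in 3 of 11. With the array cluster as a block, Bhlhe40 became 0.84 (limma adjusted p = 0.262) and Dbp 1.32 (0.0542), which are no longer calls, and Bhlhe41 0.83 (0.00249). The lower dose, in the mean over the 4 times, had 2 called genes in all lists, Rbp7 (1.41) and Gpihbp1 (0.79).

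Sampling time, by the series description the time after the last dose, gave calls among members that dose did not. Between 6 and 24 h 0 members were called at any dose. Of all probe sets 0.226%, 0.102% and 0.129% were called there with vehicle, 10 mg/kg and 80 mg/kg. At an unadjusted p under 0.05 in limma there were 0, 1 and 1 members. Clock genes were called between these times. From 6 to 24 h with vehicle, Dbp changed by -1.79, Per2 by -2.11, Bhlhe41 by -1.16 and Bmal1 by 1.61. Dbp, Bhlhe41 and Bmal1 were also called at 10 mg/kg, and Bmal1 at 80 mg/kg. By the series description, only 6 h is not a whole number of days after the last dose. Whether time of day had a part in differences from 6 h was not tested. Between 168 and 336 h 3 of 11 member probe sets were called with vehicle, 2 at 10 mg/kg and 3 at 80 mg/kg, against 4.55%, 5.11% and 3.02% of all probe sets. With vehicle 2 of the called probe sets are of 1 gene, Ppargc1a. In these comparisons the groups also differ in array cluster: all 336 h arrays are in the second cluster and few of the 168 h arrays are.

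Ppargc1a was lower at 336 h than at 168 h in 2 of its probe sets, with a call in 1 or both of them at each dose. Its probe set 1395518_at was 9.22, 8.72, 8.35, 9.28 and 8.33 at 336 h with vehicle, against 9.18, 9.43, 8.84, 9.72 and 9.90 at 168 h. The groups overlapped, and the fall of 0.63 had an adjusted p of 0.039 in limma. At 80 mg/kg it was 8.96, 8.93, 9.25, 8.75 and 8.43 at 336 h, and 9.26 through a median of 9.57 to 9.79 at 168 h. These groups did not overlap, and the difference was -0.67 (adjusted p = 0.030). Hearts of 10 mg/kg did not overlap either, at 8.54 through a median of 8.85 to 9.16 at 336 h against 9.20, 9.62, 9.25, 9.52 and 9.40 at 168 h, while the difference of -0.56 had an adjusted p of 0.054.

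The probe set 1393743_at of Ppargc1a moved the same way. It was 9.07, 8.76, 8.63, 9.13 and 8.75 at 336 h with vehicle, against 9.31, 9.58, 9.16, 9.19 and 9.40 at 168 h, with no overlap and a difference of -0.46 (limma adjusted p = 0.029). It differed by -0.39 at 10 mg/kg (adjusted p = 0.048), and at 80 mg/kg by -0.24 (adjusted p = 0.29). The low 1370089_at was not called at any dose, and differed by -0.22 with vehicle, 0.23 at 10 mg/kg and -0.23 at 80 mg/kg. On the deposited scale the median of all probe sets shifts by 0.24, 0.62 and 0.49 with vehicle, 10 mg/kg and 80 mg/kg. There the differences of 1395518_at and 1393743_at at 10 mg/kg became 0.092 and 0.25, and that of 1393743_at at 80 mg/kg became 0.28. The direction of these differences therefore holds only relative to the other probe sets.

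**Figure D4:**
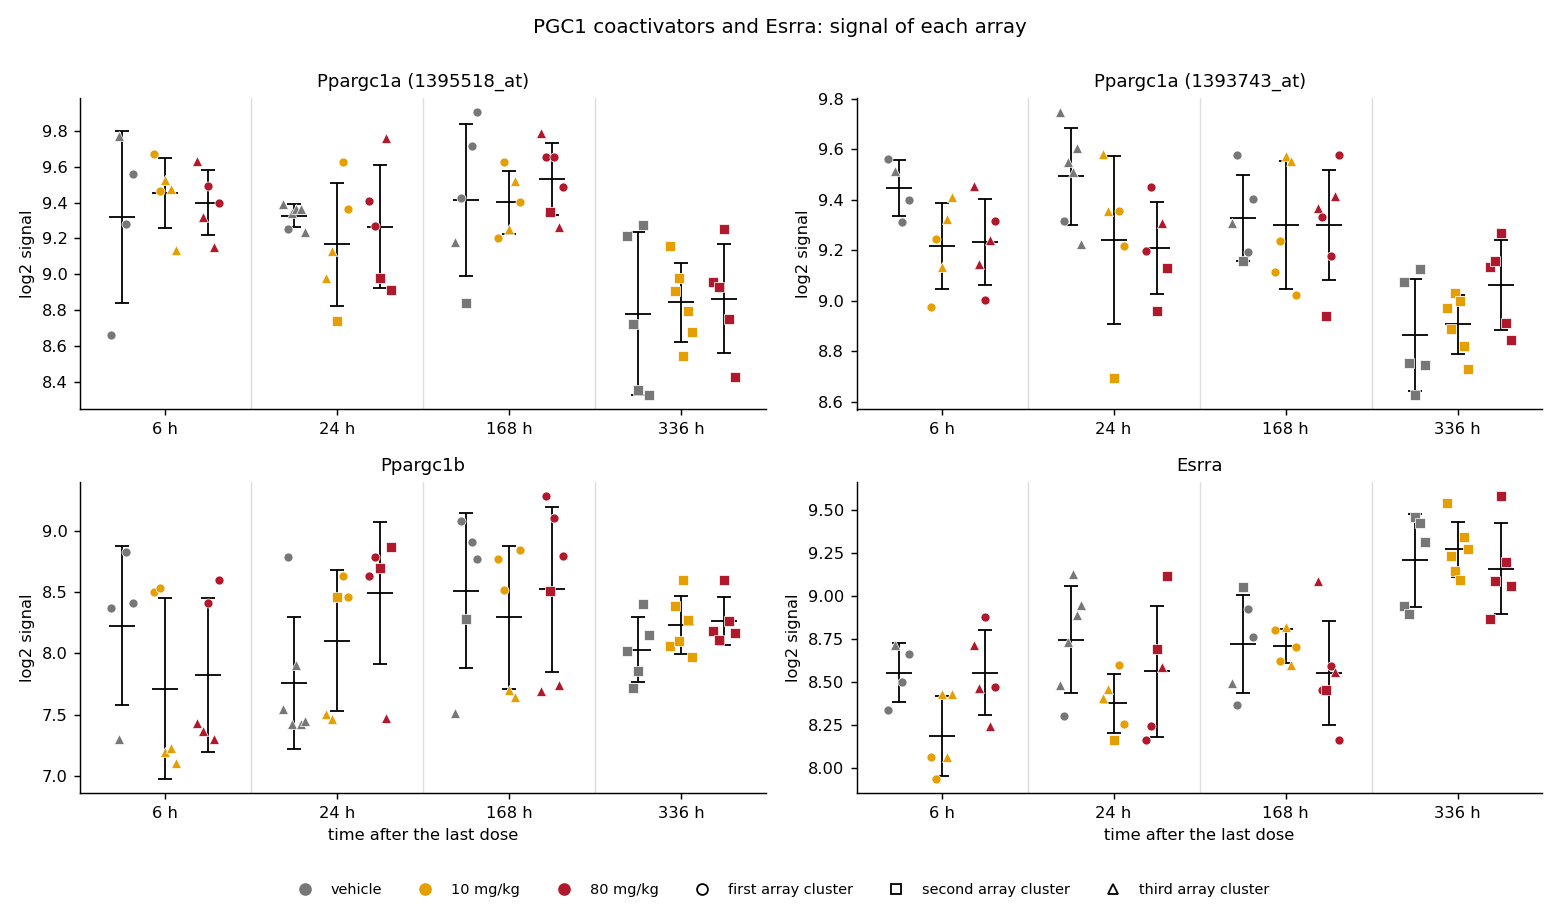
Log2 signal (vertical axis) of 2 Ppargc1a probe sets, Ppargc1b and Esrra in each array of the 12 groups, with colours, shapes, lines and bars as for the PPAR genes. At 336 h all points are squares, Ppargc1a 1395518_at averages 8.78, 8.84 and 8.86 with vehicle, at 10 mg/kg and at 80 mg/kg, and Esrra averages 9.21, 9.27 and 9.16.

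Esrra was higher at 336 h than at 168 h, with a call at 10 and 80 mg/kg. In 10 mg/kg hearts it ran from 9.09 through a median of 9.26 to 9.55 at 336 h, against 8.81, 8.62, 8.82, 8.60 and 8.71 at 168 h. Every 336 h array lay above every 168 h array, and the difference was 0.56 (limma adjusted p = 0.024). At 80 mg/kg it was 8.87, 9.09, 9.59, 9.20 and 9.06 at 336 h, and 8.16 through a median of 8.51 to 9.09 at 168 h, a difference of 0.61 with some overlap (adjusted p = 0.023). With vehicle the difference was 0.49 and missed the threshold (adjusted p = 0.064).

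Ppard and Rxrb were higher at 336 h in 1 dose group each by this test. Ppard 1374914_at was 8.24, 8.30, 7.94, 8.44 and 8.22 at 336 h with vehicle, against 7.80, 6.93, 8.03, 7.67 and 7.67 at 168 h, and 168 h replicate 2 lay far below the rest. The difference was 0.61 (limma adjusted p = 0.022), and it was 0.36 at 10 mg/kg (adjusted p = 0.151) and 0.44 at 80 mg/kg (adjusted p = 0.091), where the groups did not overlap. Rxrb was 7.10, 7.73, 7.43, 7.35 and 7.26 at 336 h at 80 mg/kg, against 7.08, 5.76, 7.0, 6.07, 6.95 and 5.74 at 168 h. The groups did not overlap and the 168 h arrays were split into a low and a high set, with a difference of 0.94 (adjusted p = 0.040). All 3 low arrays are in the first cluster. With vehicle and at 10 mg/kg Rxrb differed by 0.59 (adjusted p = 0.203) and 0.31. Whether these late differences differ between doses was not tested directly. The F test of a dose's effect over time compares each dose with vehicle over all 4 times, and not the late pair alone. It called 0 members, and 0.0215% (80 mg/kg) and 0% (10 mg/kg) of all probe sets, so it does not show that the late differences are alike.

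With the array cluster as a block 0 members were called between 168 and 336 h, and of all probe sets 0%, 0.0107% and 0.0215% were called in vehicle, 10 mg/kg and 80 mg/kg hearts. At an unadjusted p under 0.05 in limma there were then 1, 0 and 3 members. With vehicle the Ppard difference became 0.19 (limma adjusted p = 0.888), and the Ppargc1a differences became -0.23 and -0.17. In 10 mg/kg hearts Ppargc1a 1393743_at became -0.00 and Esrra 0.37 (adjusted p = 0.918). At 80 mg/kg Rxrb became 0.48, Ppargc1a 1395518_at -0.25 and Esrra 0.45 (adjusted p = 0.552). Of the differences without a call, Ppard became -0.12 at 10 mg/kg and 0.04 at 80 mg/kg, and Rxrb 0.08 with vehicle. Few 168 h arrays share the cluster of the 336 h arrays, so the block leaves little to compare within it, and time and cluster can only partly be told apart.

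The 5 earlier arrays in the second cluster show both patterns. Ppargc1a 1395518_at averaged 8.83 at 336 h, 8.96 in these 5 and 9.42 in the other earlier arrays, and 1393743_at averaged 8.94, 8.98 and 9.35. Ppard averaged 8.23, 8.17 and 7.79 in the same order, so both genes lay near the 336 h level in the 5 earlier arrays. Rxrb averaged 7.33, 7.07 and 6.72. Esrra averaged 9.22 at 336 h, against 8.70 in these 5 and 8.54 in the other earlier arrays, and here the 5 lay nearer to the other earlier arrays. The clusters were found from these same arrays, so these means are a description with no test.

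**Figure D5:**
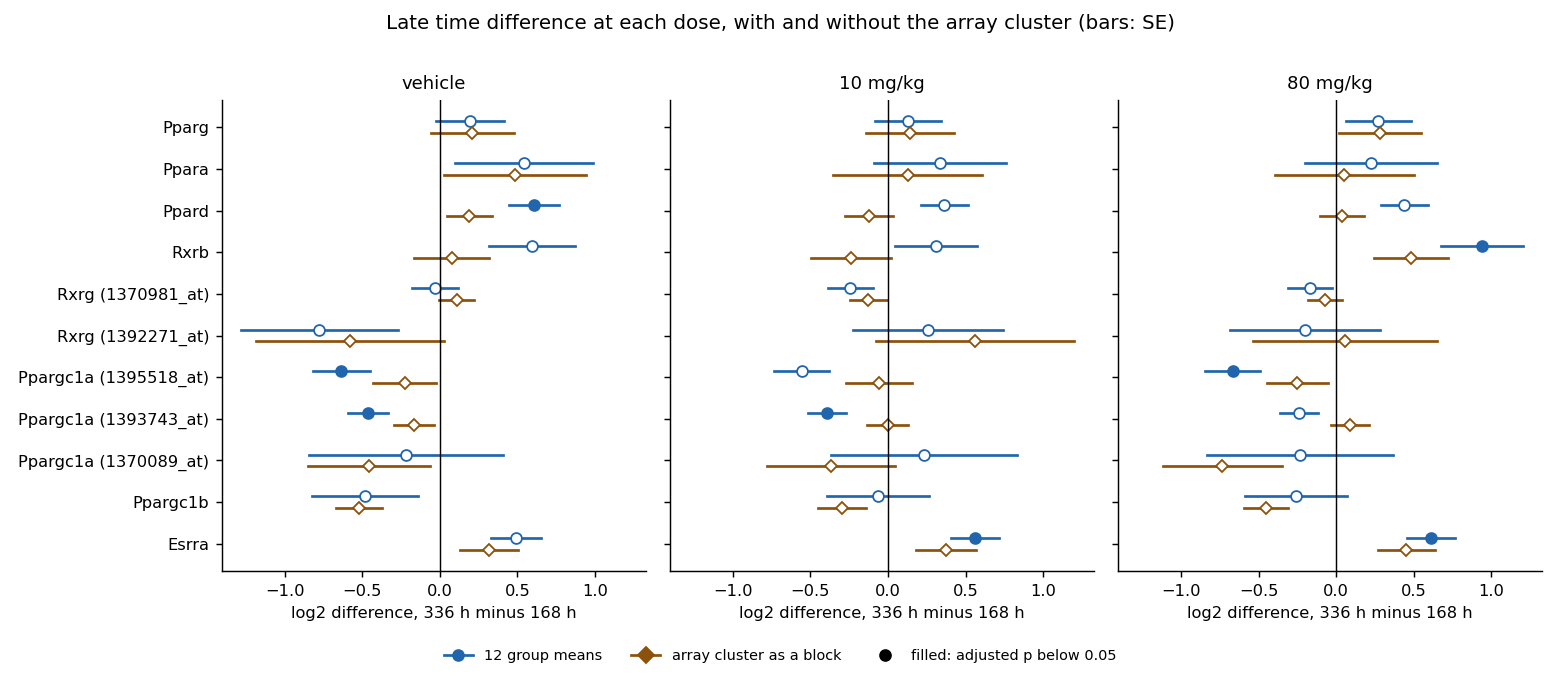
Difference of 336 h from 168 h in log2 units (horizontal axis) for the 11 tested probe sets at each dose, as circles from the 12 group means and as diamonds from the fit that adds array cluster, with SE as bars and filled marks for an adjusted p under 0.05. Filled circles are 3 with vehicle, 2 at 10 mg/kg and 3 at 80 mg/kg, no diamond is filled, and Esrra at 80 mg/kg lies at 0.61 as a circle and 0.45 as a diamond.

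Each of these 8 calls was lost when 1 or another array was left out. The Ppard call with vehicle was lost without 168 h replicates 2 (difference 0.43, limma adjusted p = 0.138) or 4 (0.051) or 336 h replicate 5 (0.073). Both Ppargc1a calls with vehicle were lost without any 1 of 168 h replicates 2, 4 and 5 and 336 h replicates 3, 4 and 6, with adjusted p of up to 0.143 for 1395518_at and 0.122 for 1393743_at. At 10 mg/kg the Ppargc1a 1393743_at call was lost in 10 of 11 omissions, all but 168 h replicate 6 (up to 0.126), and the Esrra call without 168 h replicates 3 (0.061) or 6 (0.053) or 336 h replicate 1 (0.057). At 80 mg/kg the Rxrb call was lost without 168 h replicates 2, 4 or 6 or any 1 of the 5 arrays of 336 h (up to 0.136). The Ppargc1a 1395518_at call at 80 mg/kg was lost without 168 h replicates 1, 2 or 4 or 336 h replicates 1, 2, 4 or 5 (up to 0.104), and the Esrra call without 168 h replicates 2 or 6 or 336 h replicates 3 or 4 (up to 0.075). Esrra with vehicle passed without 168 h replicate 3 (0.57, adjusted p = 0.025), and Ppargc1a 1395518_at at 10 mg/kg passed without 168 h replicate 4 (0.048) or 336 h replicate 1 (0.045). The direction stayed the same in each of these omissions.

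An F test asked whether a level differed among the 4 times within a dose. Esrra was called at each dose, with a limma adjusted p of 0.0328 with vehicle, 1.36e-05 at 10 mg/kg and 0.0159 at 80 mg/kg. Its means at 6, 24, 168 and 336 h were 8.55, 8.75, 8.72 and 9.21 with vehicle, 8.18, 8.37, 8.71 and 9.27 at 10 mg/kg, and 8.55, 8.56, 8.55 and 9.16 at 80 mg/kg. The 336 h mean was the highest at every dose. Ppard (0.0401) and Ppargc1a 1393743_at (0.0032) were also called with vehicle and Ppara (0.0266) at 10 mg/kg. That makes 3, 2 and 1 of 11 member probe sets with vehicle, 10 mg/kg and 80 mg/kg, against 8.05%, 7.17% and 5.77% of all probe sets. Pparg missed the threshold at 80 mg/kg (adjusted p = 0.099). The calls of Esrra at 10 mg/kg and of Ppargc1a held in each omission of 1 array. Esrra with vehicle was lost without 6 h replicates 1 or 5 or 336 h replicates 4, 5 or 6 (adjusted p up to 0.121 in limma), and at 80 mg/kg without 336 h replicates 3 (0.107) or 4. Ppard was lost without 24 h replicate 4, 168 h replicates 2, 4 or 5 or 336 h replicates 2, 3, 5 or 6 (up to 0.136), and Ppara without 6 h replicates 3, 4 or 5 or 336 h replicate 5 (up to 0.145).

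When cluster was a block, the F test called 0.285%, 0.607% and 1.21% of all probe sets with vehicle, 10 mg/kg and 80 mg/kg. Among members Esrra at 10 mg/kg remained called (limma adjusted p = 0.00706), and Rxrg 1370981_at at 80 mg/kg passed under the block (adjusted p = 0.0326). Esrra with vehicle (0.769) and at 80 mg/kg (0.407), Ppard (0.727), Ppargc1a (0.894) and Ppara (0.307) did not. Rxrg 1370981_at averaged 9.71, 9.92, 10.19 and 10.02 at 6, 24, 168 and 336 h at 80 mg/kg, lowest at 6 h. In those 6 h hearts it was 9.58, 9.57, 9.80, 9.58 and 10.04, with 4 of the 5 arrays at or below 9.80. These values are not adjusted for cluster. This probe set averaged 10.19, 9.98 and 9.75 in the first, the second and the third cluster, and 3 of these 5 arrays are in the third. Without the block its F test had a limma adjusted p of 0.121. The other Rxrg probe set, 1392271_at, was not called at 80 mg/kg under the block (limma adjusted p = 0.987). All F tests of time include 6 h, and the part of time of day in them was not tested.

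Genes around the members also differed between 168 and 336 h, and with the cluster as a block 0 genes of the 7 lists were called there. Of all probe sets 4.55%, 5.11% and 3.02% were called with vehicle, 10 mg/kg and 80 mg/kg without the block, and a single call in a list of 21 to 24 genes lies near these shares. Among coregulators 0 of 22 rose and 1 fell with vehicle, Nrip1 (-0.55), a corepressor of nuclear receptors. With 10 mg/kg 4 fell, Crebbp (-0.50), Cited2 (-0.49), Tbl1xr1 (-0.39) and Ncoa4 (-0.20), and at 80 mg/kg Med1 rose (0.88). Of 23 other nuclear receptors Nr1h2, the gene of liver X receptor beta, rose with vehicle (0.54) and at 80 mg/kg (0.49), Nr3c1, the glucocorticoid receptor gene, fell with vehicle (-0.38), and Nr1d2, a clock repressor gene, fell at 10 mg/kg (-0.73) and 80 mg/kg (-0.71).

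Of 21 regulators of mitochondrial biogenesis Klf15 rose with vehicle (0.70), while at 10 mg/kg Polrmt rose (0.76) and Atf2 fell (-1.49). Of 21 PGC1 and ERR targets 1, 3 and 1 rose with vehicle, 10 mg/kg and 80 mg/kg and 0 fell. They were Ndufv1 (0.23) with vehicle, the citric acid cycle genes Idh3a (0.56) and Ogdh (0.31) and the ATP synthase gene Atp5f1b (0.22) at 10 mg/kg, and Idh3a (0.54) at 80 mg/kg. The median of this list was 0.02, -0.02 and -0.00, against -0.00, -0.01 and 0.00 for all probe sets.

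Of 24 cardiac PPAR alpha targets 2, 3 and 1 rose and 0, 1 and 0 fell in the same order of doses. The lipid droplet gene Plin5 rose at each dose, by 0.73, 0.69 and 0.83, Ucp2 rose with vehicle (0.91), and at 10 mg/kg Cpt2 (0.62) and Acadl (0.22) rose while Acot2 fell (-0.97). Of 17 PPAR gamma targets 2, 2 and 0 rose and 1, 2 and 1 fell. Cd36 was among the fallen at each dose (-0.74, -0.61 and -0.68), and the glucose transporter gene Slc2a4 (0.49 and 0.44) and Dgat1 (0.47 and 0.43) rose with vehicle and at 10 mg/kg, where Gk fell (-0.54). Of 13 clock genes Clock fell with vehicle (-0.40). Leaving out 1 array ended 10 of 11 list calls with vehicle, all but Klf15, 16 of 18 at 10 mg/kg, all but Gk and Ogdh, and 6 of 6 at 80 mg/kg in at least 1 omission. These directions are relative to all probe sets, whose median moves on the deposited scale as given for Ppargc1a.

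Several members varied with the array clusters. Ppargc1a 1370089_at averaged 6.79, 6.29 and 4.81 in the first, the second and the third cluster, and Ppargc1b averaged 8.72, 8.27 and 7.47. Over 62 arrays with group means removed these 2 probe sets correlated at 0.87, and at 0.37 with cluster means removed as well. Rxrg 1370981_at and Ppargc1b correlated at 0.76 before and 0.19 after the same step, and Ppard and Rxrb at 0.64 before and 0.40 after. Between probe sets of 1 gene the values were lower: Ppargc1a 1395518_at and 1393743_at, which differed alike between 168 and 336 h, correlated at 0.35, and Ppargc1a 1393743_at and 1370089_at at -0.29. All these points share arrays and their RNA quality, and the correlations are descriptions with no test.

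For each member the genes with the most similar pattern were sought among 10556 genes over the 62 arrays, with group means removed and by the brightest tested probe set. For Pparg they were Plag1 (Pearson r = 0.54), Usf3 (0.49) and Pld2 (0.48), and these values hardly changed with cluster means removed (0.55, 0.50 and 0.49). Pparg averaged 6.55, 6.64 and 6.51 in the first, the second and the third cluster, the narrowest span of the 11 tested probe sets. For Esrra they were Lrrc8c (0.56), Zfp691 (0.55) and Twnk (0.55), the gene of the mitochondrial DNA helicase, which stood at 0.56, 0.48 and 0.50 with cluster means removed.

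For the other members the likeness was higher and dropped more when cluster means were removed. Ppargc1b was most like Csnk2a1, Msi2 and Eea1 (all 0.96, then 0.57, 0.59 and 0.59), and Rxrg most like Fndc3b (0.81, then 0.31), Sf3b1 (0.80, then 0.44) and Rab14 (0.80, then 0.41). Rxrb was most like Myo1c (0.84, then 0.66), Itga7 (0.82, then 0.61) and Arhgef1 (0.82, then 0.60). Ppard was most like Lmo7 (0.81, then 0.63), Jup (0.80, then 0.64) and Phospho1 (0.78, then 0.54). Ppara was most like Mindy2 (0.66, then 0.44), Casz1 (0.64, then 0.46) and Setd5 (0.63, then 0.39), and Ppargc1a most like Cpeb4 (0.62, then 0.48), Ttbk2 (0.58, then 0.44) and Rsrc2 (0.57, then 0.43).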

How the data were processed

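Each of the 62 samples was hybridised to 1 Affymetrix rat array. The authors deposited an intensity signal on a linear scale for each probe set in each array, made with GCOS and MAS5 per the submitters' processing notes (their versions are not given in the sources used here). Of the deposited probe sets 57 controls were left out, leaving 31042, and 0 arrays were identical. Gene names came from the platform annotation, with 20832 probe sets of 1 gene and 436 of several.

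Log2 signals were quantile normalized, because the deposited arrays did not share a scale, and probe sets with a mean log2 at or above the 40th percentile were kept. R 4.3.3 and its package limma 3.58.1 fitted 12 group means, and two-sided p-values were adjusted by Benjamini-Hochberg over 18625 probe sets. The procedure was tested on simulated data. The number of arrays limits the precision. All probe sets of the 9 genes are named whatever their p, with up to 4 called genes of each list, 3 genes most like each member, and Rbp7, Gpihbp1, Fabp4 and Dbp. Nrip1 and the other list genes follow that rule. Members and lists were chosen with earlier results of these data known. Alternatives were other scalings, filters and offsets, array weights, the cluster or replicate number as a block, and arrays left out.

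Replicate numbers are shared between groups. Over 52 pairs of the same number at the same time, the deviations from group means correlated at -0.257 to 0.338. Their median was 0.007, against -0.006 for different numbers. The numbers were not used as pairs in the main fit, and whether they pair samples was not settled.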

Additional observations from a re-analysis of the deposited data

Results flagged for a closer look

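Among 156 combinations of member probe set and group, 12 held an array far from the rest of its group by Dixon's test at 95%, a test that chance passes in about 1 of 20 groups. Ppargc1a 1370089_at was 7.24 in vehicle 24 h replicate 2, against 4.58 to 5.27 in the others, and Ppargc1b was 8.79 in the same array, against 7.42 to 7.90. That array is the only one of its group in the first array cluster. Ppargc1b was 7.47 in 80 mg/kg 24 h replicate 5, against 8.63 to 8.87, the only array of its group in the third cluster, and Ppargc1a 1370089_at was 4.31 in vehicle 168 h replicate 1, against 6.56 to 7.02.

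Among the PPAR genes, Ppara was 3.55 in vehicle 24 h replicate 3, against 5.30 to 5.95. Ppard 1374914_at was 8.17 in 10 mg/kg 24 h replicate 3, against 7.76 to 7.87, and 8.40 in 80 mg/kg 336 h replicate 5, against 8.13 to 8.19. The untested Ppard 1387684_at was 3.15 in 80 mg/kg 6 h replicate 2, against 5.0 to 5.62.

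Among the RXR genes, the untested Rxra probe set was 5.95 in vehicle 168 h replicate 3, against 3.47 to 3.79, and that is the array of its group in the second cluster. Rxrb was 5.97 in 80 mg/kg 6 h replicate 6, against 6.93 to 7.20. Rxrg 1370981_at was 9.73 in vehicle 6 h replicate 3, against 9.98 to 10.01, and Rxrg 1392271_at was 4.10 in vehicle 24 h replicate 1, against 5.06 to 5.45.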

How the results depend on the processing

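The count of called members stayed at 0 in the 15 dose comparisons, between 6 and 24 h and in the F tests of a dose's effect over time, under every alternative run. Those on late time moved. Between 168 and 336 h the counts of 3, 2 and 3 (vehicle, 10 mg/kg, 80 mg/kg) became 0, 0 and 0 with median scaling and also with the array cluster as a block, and 1, 1 and 1 with no filter. With signals as deposited they became 0 with vehicle and 4 at 10 mg/kg, and without the arrays of high Myl7 1 at 10 mg/kg. For the F test of time the counts of 3, 2 and 1 became 0 with vehicle and 4 at 80 mg/kg as deposited, 1 with vehicle and 1 at 10 mg/kg with median scaling and without high Myl7, 1 with vehicle with no filter, 4 at 10 mg/kg and 5 at 80 mg/kg with array weights, 0 with vehicle and 1 at 10 mg/kg with the cluster block, 2 at 80 mg/kg without the 3 arrays of a high actin difference, and 1 at 10 mg/kg with 16 added before log2. Leaving out single arrays gave 0 to 4, 0 to 2 and 0 to 3 between 168 and 336 h, and 1 to 4, 1 to 4 and 0 to 3 for the F test. Fewer arrays or a lower filter change what is tested, and beyond that the cause was not tested.

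Some single values turned direction. Between 168 and 336 h at 10 mg/kg, Ppargc1a was 0.092 and 0.25 in 1395518_at and 1393743_at as deposited, and Ppard -0.12 with the cluster block. The value of 1393743_at at 80 mg/kg was 0.28 as deposited. Without the arrays of high Myl7, Ppara was 0.32 for 10 mg/kg against vehicle at 6 h, -1.17 for 80 against 10 mg/kg at 6 h and -0.61 for 24 against 6 h at 10 mg/kg. The cause was not tested.

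With the replicate number as a block, 1 call was lost, Rxrb between 168 and 336 h at 80 mg/kg (0.89, limma adjusted p = 0.0558). The counts of called members in the other comparisons were the same. Of 62 arrays 19 correlated best with an array of their own number. The number that chance gives was not computed, so this count does not settle whether the numbers pair samples. Probe sets near the filter, such as Rxrg 1392271_at and Ppara, have a wide spread, and Rxra lies below it.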
